A study of Homo sapiens with 8 samples.

Results

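The genes described here are 39 genes of autophagy and the lysosome, of the 23228 genes in each deposited count table. They are a fixed list of gene symbols that covers the initiation complexes, the supply of membrane, the conjugation enzymes, the Atg8 family, the cargo receptors, the transcription factor TFEB, and the membrane and contents of the lysosome. All 39 symbols were in the tables, and 38 had enough reads to be tested, beside 13915 tested genes in all. MAP1LC3A, which had 0 to 3 reads per library, was not tested.

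RNA was sequenced in 8 libraries, 2 in each of 4 groups, and the labels name the cells as U87 MG, a human glioblastoma line. ERβ5 cells were made from knockout cells to which isoform 5 of estrogen receptor beta (ERβ, gene ESR2) had been returned, and ERβ1 cells from the same knockout cells with isoform 1 returned. ERβ-KO cells had lost ERβ through CRISPR/Cas9, so the ERβ5 and ERβ1 groups also carry the knockout, and control cells are given as U87 controls with no further detail. The labels do not give the promoter that drives each isoform or say whether a line is a single clone. All cells were grown in DMEM with 10% serum, and the series asks how the isoforms differ in their effects on glioblastoma cells.

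Autophagy encloses cytoplasm, protein aggregates or organelles in a double membrane, the autophagosome, and delivers them to the lysosome for digestion. A kinase complex with ULK1 and a lipid kinase complex with BECN1 start the membrane, ATG9A and ATG2A bring in lipids, and a ubiquitin-like conjugation system attaches Atg8-family proteins such as LC3 to it. Cargo receptors such as SQSTM1 (p62) and OPTN (optineurin) bind both ubiquitinated cargo and LC3, and are degraded along with the cargo, so that their protein amount also depends on flux, which RNA does not measure. TFEB is a transcription factor that binds the CLEAR element, a sequence built around the E-box CACGTG, in promoters of lysosomal genes.

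Each library had between 26760897 and 48076414 reads in genes. ESR2 had 7 and 10 reads in ERβ5, 6 and 18 in ERβ1, 23 and 21 in ERβ-KO and 25 and 20 in control libraries, and it was not called changed in any of the 6 comparisons. The reads thus do not show the isoforms at the level of ESR2, and a group name below stands for the libraries that carry that label. Markers also went against the glioblastoma label. All 10 markers of luminal breast epithelium (KRT8, ESR1 and others) reached 10 CPM (read counts scaled to a common library size) in every library, against 4 of 12 markers of mesenchymal glioma and astrocytes, with OLIG2 and POSTN at 0. The 2 libraries of a group were not interchangeable: a chi-square test of their counts gave 42.1 per degree of freedom in ERβ5, 22 in ERβ1, 26.9 in ERβ-KO and 7.69 in control. Nothing says that they came from separate cultures, so the p-values reflect the spread among these samples alone, and that spread may be technical. The ERβ-KO libraries stood apart in base composition: the correlation across genes of a library's deviation from the mean of all libraries with transcript GC content was -0.56 and -0.46 there, and between -0.137 and 0.351 in the other libraries.

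Promoters of 6 genes are shown because they hold the E-box and belong to genes whose RNA changed, or, for LAMP1, to the gene with the densest run of it. They are RefSeq windows on GRCh38.p14, 5′ to 3′ on the gene's strand and upstream of the start site, with each whole CACGTG in capitals.
LAMP1 (chr13:113297039-113297238, plus strand): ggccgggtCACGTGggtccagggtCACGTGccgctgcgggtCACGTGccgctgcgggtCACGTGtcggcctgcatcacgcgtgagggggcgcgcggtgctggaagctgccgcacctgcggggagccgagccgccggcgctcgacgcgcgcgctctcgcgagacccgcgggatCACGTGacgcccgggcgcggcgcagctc
MCOLN1 (chr19:7522544-7522623, plus strand): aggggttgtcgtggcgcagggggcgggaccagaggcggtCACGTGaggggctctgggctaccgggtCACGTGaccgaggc
CTSA (chr20:45891255-45891334, plus strand): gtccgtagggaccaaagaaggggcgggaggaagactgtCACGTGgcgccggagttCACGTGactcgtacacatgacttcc
CTSD (chr11:1763928-1764007, minus strand): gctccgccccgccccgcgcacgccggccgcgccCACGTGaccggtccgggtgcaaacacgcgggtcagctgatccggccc
GAA (chr17:80101501-80101580, plus strand): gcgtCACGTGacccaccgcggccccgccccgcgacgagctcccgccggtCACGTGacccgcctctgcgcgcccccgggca
ATG3 (chr3:112561963-112562042, minus strand): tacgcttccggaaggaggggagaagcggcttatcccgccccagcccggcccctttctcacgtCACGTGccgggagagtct

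The table held a window of 300 bases for 34 of the 39 genes, and CACGTG, which reads the same on both strands, was in 7 of them (20.6%), against 9.27% of 13975 windows of tested genes and 7.26% of all 35116 windows. The longer TCACGTG, searched on both strands and always overlapping the shorter motif, was in the same 7 windows, against 5.19% of the windows of tested genes. The 7 genes were the 6 above and ATG14, and the whole LAMP1 window held 6 copies. LAMP1, with the most copies, was called in no comparison, and the windows of SQSTM1, OPTN and GLA, which differed between ERβ5 and ERβ1, held none. A match is a description of these letters and not of binding.

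In ERβ5 against ERβ1, 4 of 38 members were called, each of them higher: SQSTM1, OPTN, CTSD and GLA. Over all genes tested, 4.66% were called there, 3.49% higher and 1.18% lower. In ERβ5 against control 8 members rose and 1 fell, where 13.2% of all genes were called, 6.85% higher and 6.31% lower. In ERβ1 against control GLA alone rose, where 4.06% of all genes were called, 1.36% higher and 2.7% lower. The counts depended on single libraries, over the members and over all genes, and a fit without 1 library leaves 1 in its group. Without ERβ1 replicate 1 the log2 difference of ERβ5 from ERβ1 was 1.13 for SQSTM1 and 1.16 for OPTN. The main values were 1.14 and 1.18, and those without ERβ5 replicate 2 were 0.76 and 0.84. A gene was called where edgeR's quasi-likelihood test gave an adjusted p under 0.05, with Benjamini-Hochberg adjustment across the 13915 genes.

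Over all genes, each comparison with ERβ-KO gave more calls than each of the other 3; over the members, ERβ5 against ERβ-KO gave the most. In ERβ5 against ERβ-KO, 12 of 38 members rose and 2 fell, where 28.2% of all genes were called, 14.7% higher and 13.5% lower. In ERβ1 against ERβ-KO 3 members rose and 3 fell, where 24.9% of all genes were called, 12.4% higher and 12.5% lower. In ERβ-KO against control 3 members rose and 4 fell, where 17.5% of all genes were called, 8.98% higher and 8.52% lower. The members' share called was 36.8%, 15.8% and 18.4% in these 3 comparisons. In the main fit this was above the background in the first, below it in the second and near it in the third. How far the members' share lay from the background depended on the fit. In the first, the 2 groups alone gave 8 members and 2786 of all genes, beside 14 and 3922. In the second, removal of each library's GC and length trend gave 8 members and 3330 of all genes, beside 6 and 3466. Whether the members differ from all genes was not tested. The median log2 change of the members was 0.07 in ERβ5 against ERβ-KO, 0.04 in ERβ1 against ERβ-KO, 0.04 in ERβ-KO against control and 0.06 in ERβ5 against ERβ1, with 0.01, 0, 0.01 and -0.01 over all genes. Leaving out 1 library also changed the counts in the comparisons with ERβ-KO, over the members and over all genes. The 6 comparisons share libraries, chiefly the ERβ-KO pair, so a level particular to that pair enters 3 of them. The pattern over libraries, with ERβ5 replicate 2 highest for SQSTM1, OPTN and CTSD, is seen in the map of members by library.

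**Figure D1:**
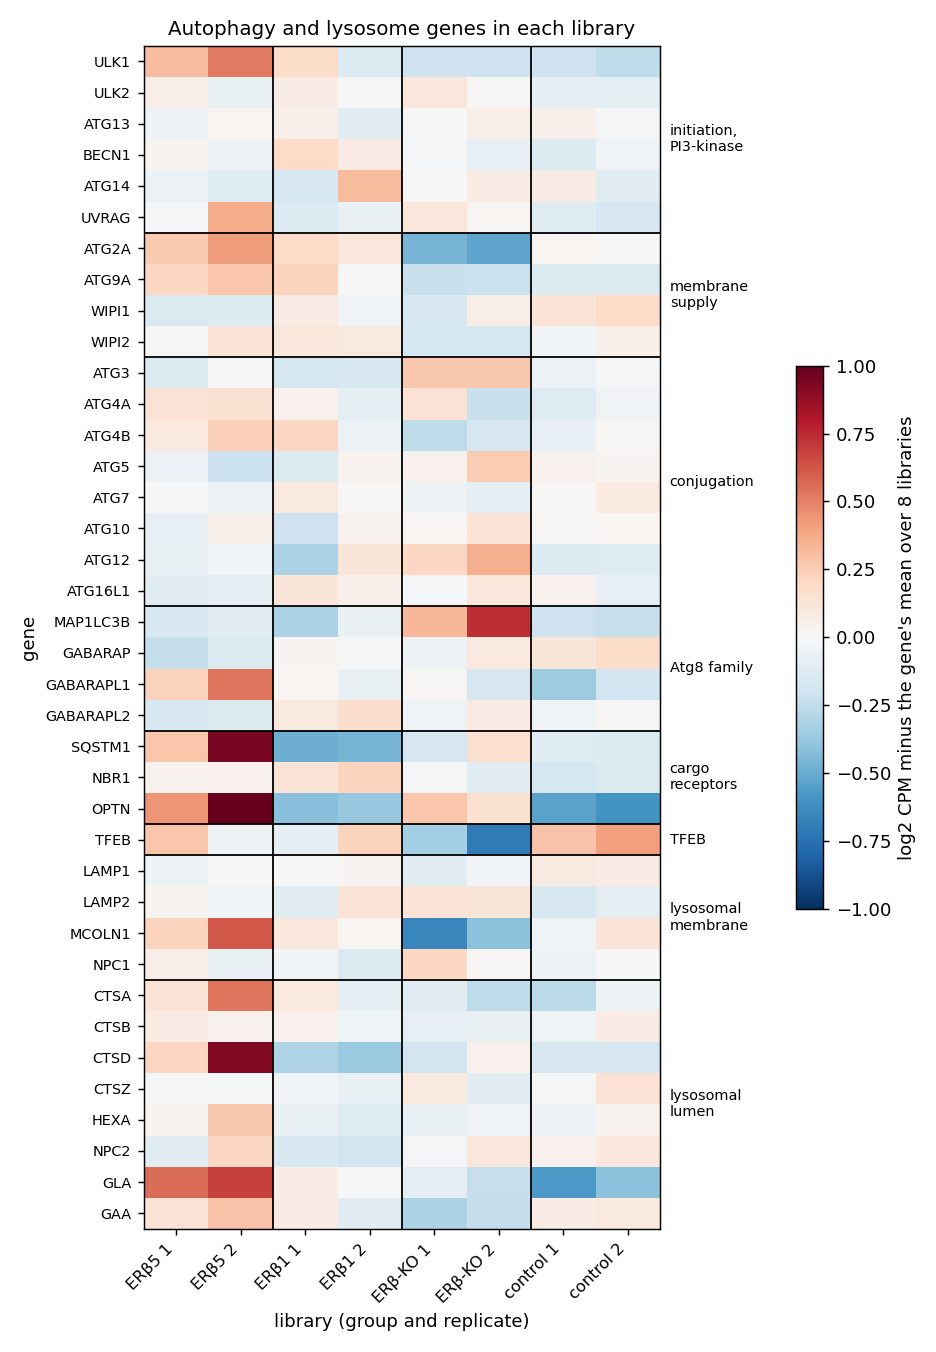
Level of each of the 38 tested autophagy and lysosome genes (rows, grouped by role) in each of the 8 libraries (columns), as log2 CPM minus the gene's mean over the libraries, with colours that stop at 1 and -1. SQSTM1, OPTN, CTSD and GLA are high in ERβ5, and ATG3 and MAP1LC3B are high and ATG2A and MCOLN1 low in ERβ-KO.

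**Figure D2:**
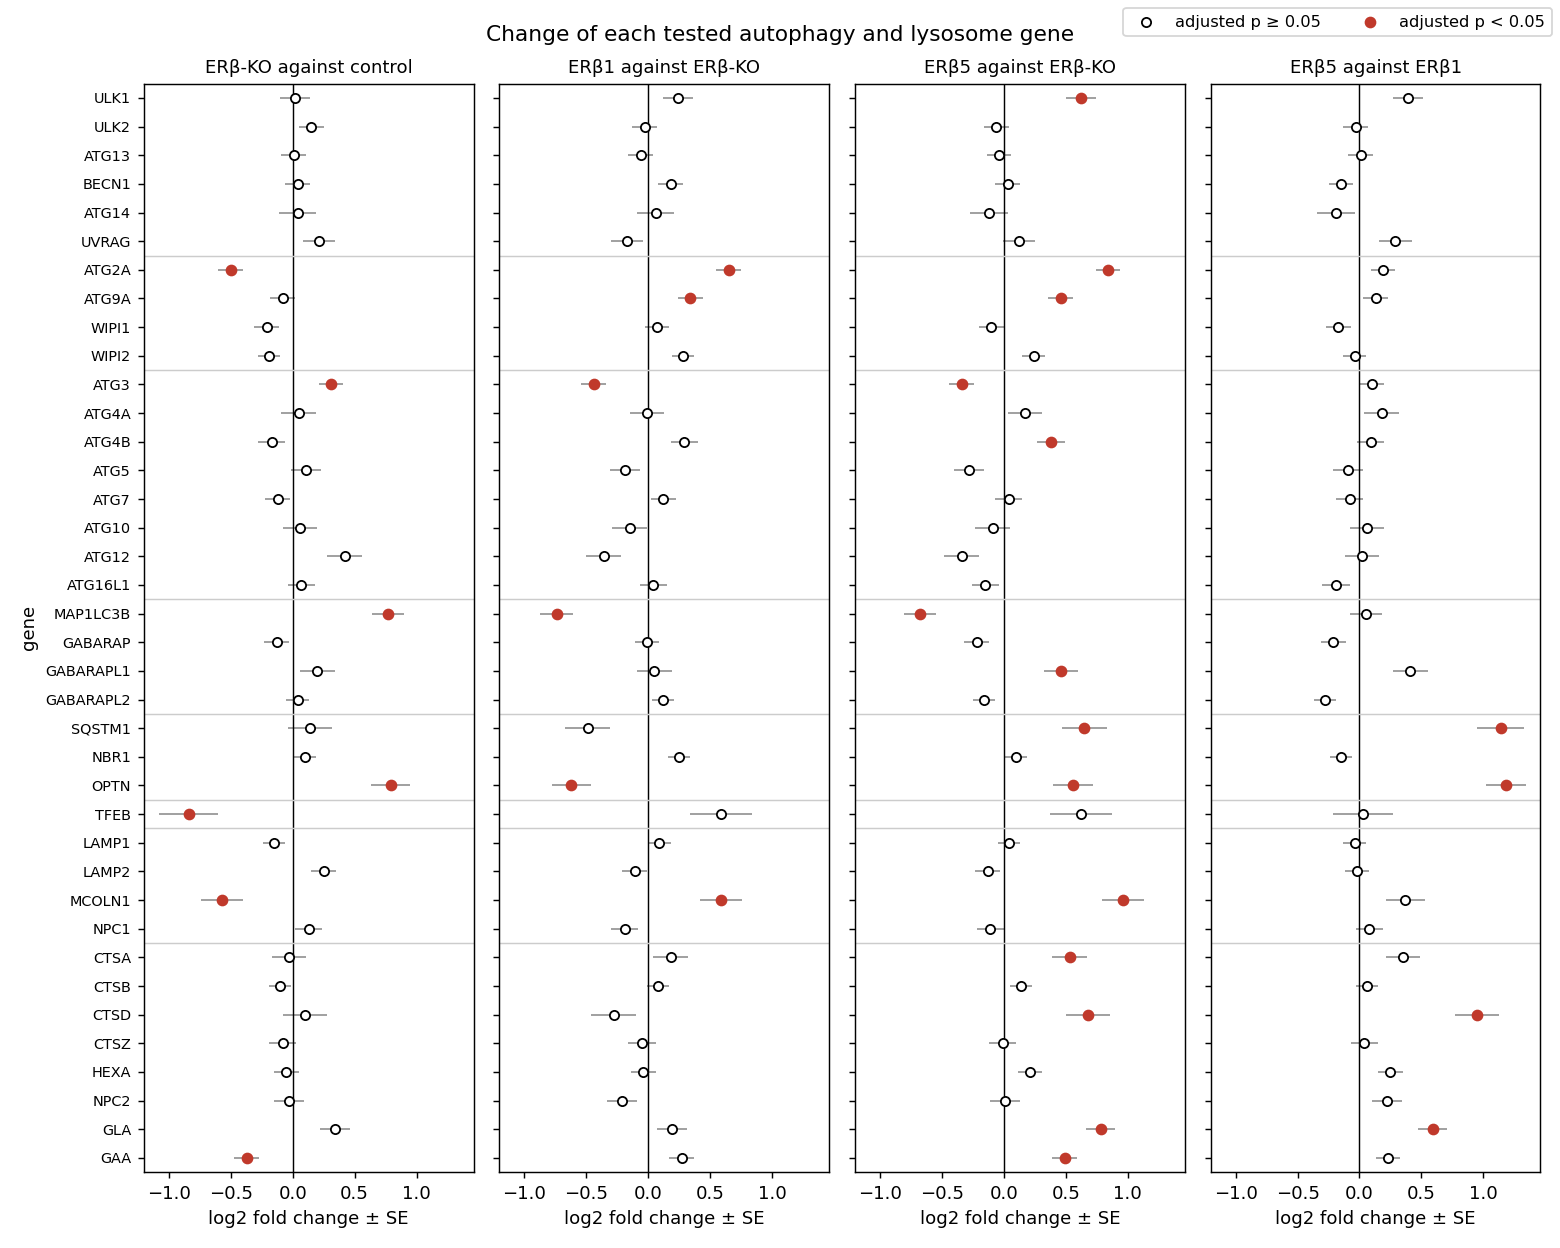
Log2 fold change of each tested gene (rows) in 4 comparisons (panels), with bars of 1 standard error. Filled red points passed an adjusted p of 0.05. SQSTM1 and OPTN lie farthest right in ERβ5 against ERβ1, at 1.14 and 1.18.

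The largest differences between ERβ5 and ERβ1 among the members were in the cargo receptors OPTN and SQSTM1. SQSTM1 (chr5:179233398-179265078 on GRCh37, plus strand) was the most abundant member per length of transcript, at 1520 CPM per kilobase in ERβ5, 690 in ERβ1, 967 in ERβ-KO and 880 in control, beside 290, 150, 182 and 170 for CTSD. Its level was 3320 and 5300 CPM in ERβ5, 1950 and 1980 in ERβ1, 2440 and 3060 in ERβ-KO and 2510 and 2490 in control libraries. Both ERβ5 libraries lay above all others, but they differed from each other by more than the other groups did. SQSTM1 rose by 1.14 ± 0.19 on the log2 scale in ERβ5 against ERβ1 (SE, adjusted p = 0.0057), by 0.65 ± 0.18 against ERβ-KO (adjusted p = 0.0252) and by 0.79 ± 0.19 against control (adjusted p = 0.018). In ERβ1 against ERβ-KO its log2 difference was -0.49 (adjusted p = 0.0759), but it was called lower in 6 of 13 alternatives, among them DESeq2 (-0.48, adjusted p = 0.0263), the fit of the 2 groups alone (-0.50, adjusted p = 0.00562), the replicate number as a block (-0.47, adjusted p = 0.0443) and removal of the GC trend (-0.66, adjusted p = 0.0257). In ERβ1 against control it was -0.35 without a filter on low counts and -0.34 with the 2 groups alone, both called (adjusted p = 0.022 and 0.016). The ERβ-KO libraries differed from control by 0.14 (adjusted p = 0.63). Without ERβ5 replicate 2 the log2 differences were 0.76 against ERβ1 (adjusted p = 0.00456), 0.27 against ERβ-KO (adjusted p = 0.196) and 0.41 against control (adjusted p = 0.0804), so that the last 2 calls were lost. The call against ERβ1 was lost without ERβ1 replicate 1 or 2 (adjusted p = 0.0728 and 0.076), that against ERβ-KO without ERβ-KO replicate 1 (0.50, adjusted p = 0.149) and after removal of each library's GC trend (0.44, adjusted p = 0.112), and that against control without control replicate 1 or 2 (adjusted p = 0.125 and 0.111). The ERβ5 call against ERβ-KO was also lost with the 2 groups alone (0.64, adjusted p = 0.0743). It was kept when the replicate block and removal of the GC trend were combined. Of SQSTM1's canonical exon bases, 21.5% overlap C5orf45 on the opposite strand, whose own level was 8.37 to 13.8 CPM.

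OPTN (chr10:13141449-13180308, plus strand), a receptor in the removal of damaged mitochondria and bacteria, had 134 and 206 CPM in ERβ5, 74 and 76 in ERβ1, 120 and 110 in ERβ-KO and 68.3 and 65.3 in control libraries. ERβ5 lay highest and ERβ-KO next, and neither overlapped ERβ1 or control. OPTN rose by 1.18 ± 0.16 in ERβ5 against ERβ1 (adjusted p = 0.00167), by 1.35 ± 0.16 against control (adjusted p = 0.000364) and by 0.56 ± 0.16 against ERβ-KO (adjusted p = 0.0237). It also rose by 0.79 ± 0.16 in ERβ-KO against control (adjusted p = 0.00914) and was lower, at -0.62 ± 0.16, in ERβ1 against ERβ-KO (adjusted p = 0.0167). Without ERβ5 replicate 2 the ERβ5 difference was 0.84 against ERβ1, 1.00 against control and 0.21 against ERβ-KO (adjusted p = 0.238, no longer called). The call against ERβ1 was lost without ERβ1 replicate 1 (1.16, adjusted p = 0.0521), and that in ERβ5 against ERβ-KO also without ERβ-KO replicate 1 or 2 (adjusted p = 0.0695 and 0.121). The same call was lost with the 2 groups alone (0.55, adjusted p = 0.0701) and with the replicate block and GC trend removal combined (0.69, adjusted p = 0.0745). After removal of the GC trend the rise in ERβ-KO against control was 0.68 (adjusted p = 0.0669) and the ERβ1 value -0.52 (adjusted p = 0.0973). The first of these was also lost without control replicate 1, control replicate 2 or ERβ-KO replicate 1 (adjusted p from 0.0621 to 0.0949), and the second without ERβ-KO replicate 1, ERβ1 replicate 1 or ERβ1 replicate 2 (adjusted p from 0.0558 to 0.118). NBR1, the other cargo receptor, had 157 to 207 CPM and was called in no comparison; with the GC trend removed it was called higher in ERβ5 and ERβ1, each against ERβ-KO (0.23 and 0.34) and against control (0.24 and 0.34).

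**Figure D3:**
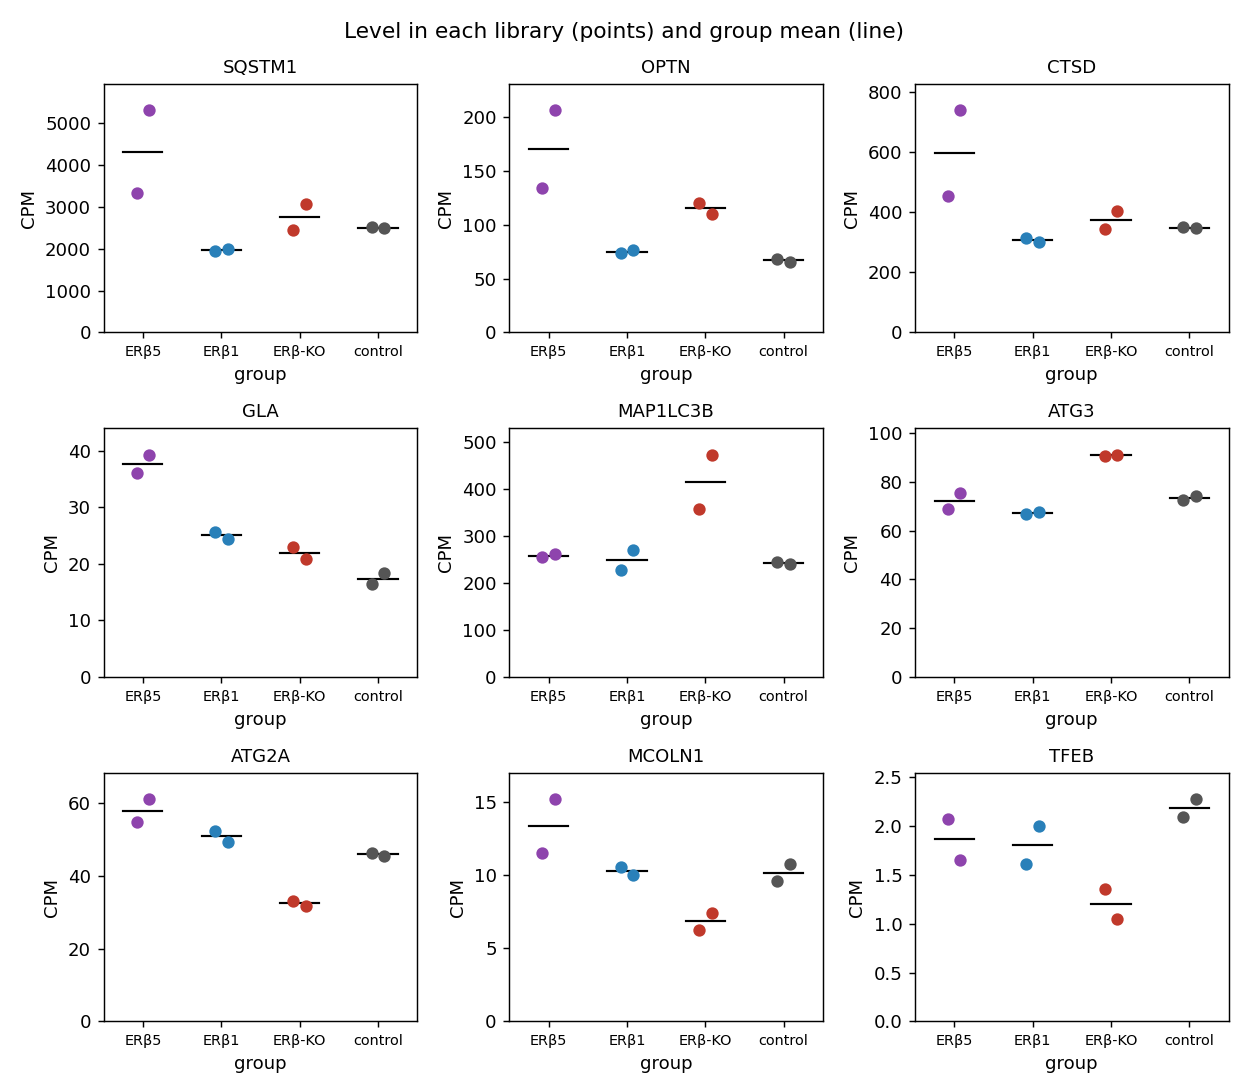
CPM of 9 genes in each library (points) with group means (lines), for ERβ5, ERβ1, ERβ-KO and control; every vertical axis starts at 0. SQSTM1, OPTN, CTSD and GLA are highest in ERβ5, while ATG3 and MAP1LC3B are highest and ATG2A, MCOLN1 and TFEB lowest in ERβ-KO.

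Among the contents of the lysosome, CTSD and GLA rose in ERβ5 against ERβ1, and the log2 difference of all 8 members of this role was above 0 there, with a median of 0.24; over all genes tested, 49% had a difference above 0. The 8 genes summed to 2230 and 2710 CPM in ERβ5, 2030 and 1880 in ERβ1, 1900 and 1940 in ERβ-KO and 1950 and 2080 in control libraries. CTSD (chr11:1773982-1785803, minus strand) encodes cathepsin D, an aspartic protease. It had 453 and 740 CPM in ERβ5, 315 and 301 in ERβ1, 344 and 403 in ERβ-KO and 350 and 348 in control libraries. Both ERβ5 libraries lay above all others, again with replicate 2 far above replicate 1. CTSD rose by 0.95 ± 0.18 in ERβ5 against ERβ1 (adjusted p = 0.0149), by 0.68 ± 0.18 against ERβ-KO (adjusted p = 0.022) and by 0.77 ± 0.18 against control (adjusted p = 0.0198). Without ERβ5 replicate 2 these were 0.56 (adjusted p = 0.0212), 0.27 (adjusted p = 0.144) and 0.37 (adjusted p = 0.074), and without ERβ1 replicate 1 or 2 the first was lost (adjusted p = 0.0971 and 0.136). The call against ERβ-KO was also lost without ERβ-KO replicate 1 or 2 (adjusted p = 0.125 and 0.0559) and after removal of the GC trend (0.23, adjusted p = 0.202), and that against control without control replicate 1 or 2 (adjusted p = 0.131 and 0.116). With the 2 groups alone, the ERβ5 calls against ERβ-KO and control were lost as well (adjusted p = 0.0657 and 0.0639). The ERβ1 value against ERβ-KO was -0.28 (adjusted p = 0.287), but it was -0.60 and called lower with the GC trend removed (adjusted p = 0.00608). CTSD in ERβ-KO against control differed by 0.10 (adjusted p = 0.734), but by 0.46 with the GC trend removed (adjusted p = 0.0359).

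GLA (chrX:100648261-100663000, minus strand) encodes alpha-galactosidase A, which removes terminal galactose from glycolipids and is deficient in Fabry disease. Its level was 36.1 and 39.3 CPM in ERβ5, 25.7 and 24.4 in ERβ1, 23 and 20.8 in ERβ-KO and 16.4 and 18.4 in control libraries. The 4 groups did not overlap, and here the ERβ5 libraries were close to each other. GLA rose by 0.59 ± 0.12 in ERβ5 against ERβ1 (adjusted p = 0.0145), by 0.78 ± 0.12 against ERβ-KO (adjusted p = 0.00178) and by 1.11 ± 0.12 against control (adjusted p = 0.000177). ERβ1 also lay above control, by 0.52 ± 0.12 (adjusted p = 0.0338), which was lost without any 1 of the 4 libraries (adjusted p from 0.0829 to 0.421), while ERβ-KO against control differed by 0.34 (adjusted p = 0.0735). The rises in ERβ5 against ERβ-KO and control held in every alternative, but that against ERβ1 was lost without ERβ5 replicate 2 (0.53, adjusted p = 0.0864) and without ERβ1 replicate 1 or 2 (adjusted p = 0.0668 and 0.1).

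Of the other 6 lumenal members, CTSA and GAA were called in at least 1 comparison. CTSA, a carboxypeptidase that also protects other hydrolases, had 350 and 460 CPM in ERβ5, 340 and 297 in ERβ1, 295 and 266 in ERβ-KO and 264 and 307 in control libraries. It rose by 0.53 ± 0.14 in ERβ5 against ERβ-KO (adjusted p = 0.0174) and by 0.50 ± 0.14 against control (adjusted p = 0.0339), neither of which held without ERβ5 replicate 2 (0.31 and 0.29, adjusted p = 0.133 and 0.225). The first was also lost without ERβ-KO replicate 2 (adjusted p = 0.101) and after removal of the GC trend (0.31, adjusted p = 0.0705), and the second without control replicate 1 or 2 (adjusted p = 0.292 and 0.0704). With the 2 groups alone the call against control was lost too (0.50, adjusted p = 0.0639). Of CTSA's canonical exon bases, 10.7% overlap PLTP on the opposite strand, at 0.376 to 0.955 CPM. GAA, acid alpha-glucosidase, which degrades glycogen, had 258 and 285 CPM in ERβ5, 248 and 216 in ERβ1, 188 and 198 in ERβ-KO and 246 and 250 in control libraries, lowest in ERβ-KO. Its fall in ERβ-KO against control (-0.37 ± 0.10, adjusted p = 0.0322) and its rise in ERβ5 against ERβ-KO (0.49 ± 0.10, adjusted p = 0.00712) were -0.01 and 0.06 with the GC trend removed, and the fall was lost without any 1 of the 4 libraries (adjusted p from 0.0733 to 0.209). CTSB, a cysteine protease and the member of this role with the highest CPM, ran from 679 to 756 in all 8 libraries, and CTSZ, HEXA and NPC2 were also called in no comparison.

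The Atg8 family split between its members. MAP1LC3B (chr16:87417559-87438385, plus strand), which encodes LC3B, had 254 and 262 CPM in ERβ5, 227 and 270 in ERβ1, 356 and 472 in ERβ-KO and 245 and 240 in control libraries. The ERβ-KO libraries lay above every other library, and the other 3 groups lay together. MAP1LC3B rose by 0.77 ± 0.13 in ERβ-KO against control (adjusted p = 0.00475) and was lower against ERβ-KO in ERβ1, at -0.74 ± 0.13 (adjusted p = 0.00276), and in ERβ5, at -0.68 ± 0.13 (adjusted p = 0.00533). The 3 comparisons share the ERβ-KO libraries, and ERβ5 and ERβ1 differed from control by 0.09 and 0.03. The first call was lost without control replicate 2 (0.75, adjusted p = 0.0626), and all 3 held with the GC trend removed. Its near copy MAP1LC3B2 had 18.9 to 33.6 CPM, and reads that align to both would be among those left out for lack of a single place.

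GABARAPL1 and GABARAP moved in opposite directions in ERβ5 against control. GABARAPL1 had 20.7 and 25.6 CPM in ERβ5, 17.9 and 16.8 in ERβ1, 17.8 and 15.7 in ERβ-KO and 13.8 and 15.5 in control libraries, and ERβ5 lay above every other library. It rose by 0.66 ± 0.14 in ERβ5 against control (adjusted p = 0.0104) and by 0.46 ± 0.14 against ERβ-KO (adjusted p = 0.0321, or 0.0652 with the 2 groups alone). Without ERβ5 replicate 2 these were 0.49 (adjusted p = 0.0756) and 0.29 (adjusted p = 0.236), and the first was also lost without control replicate 1 (0.58, adjusted p = 0.135) and the second without ERβ-KO replicate 1 or 2 (adjusted p = 0.0635 and 0.158). GABARAP, with 238 to 320 CPM, was lower in ERβ5 than in control, at -0.35 ± 0.10 (adjusted p = 0.0353), a call lost without any 1 of the 4 libraries (adjusted p from 0.0504 to 0.248). GABARAPL2 (170 to 213 CPM) was not called.

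Of the 8 conjugation enzymes, ATG3 alone was called in more than 1 comparison. ATG3 is the E2-like enzyme that hands Atg8 proteins to the membrane lipid, and had 68.7 and 75.4 CPM in ERβ5, 66.7 and 67.7 in ERβ1, 90.8 and 91.1 in ERβ-KO and 72.5 and 74.3 in control libraries. ERβ-KO lay above all other libraries, as it did for MAP1LC3B. ATG3 rose by 0.31 ± 0.10 in ERβ-KO against control (adjusted p = 0.0446), and was lower against ERβ-KO in ERβ1 (-0.44 ± 0.10, adjusted p = 0.00754) and in ERβ5 (-0.34 ± 0.10, adjusted p = 0.0235). The rise was not called with upper quartile size factors (0.27, adjusted p = 0.0671) or without a filter on low counts (0.31, adjusted p = 0.0599). The ERβ5 fall was not called with the 2 groups alone (-0.34, adjusted p = 0.0605). The ERβ-KO rise was lost without any 1 library (adjusted p from 0.126 to 0.244), and the ERβ5 fall without ERβ5 replicate 1, ERβ-KO replicate 1 or ERβ-KO replicate 2 (adjusted p from 0.0848 to 0.0883). ATG4B, the protease that primes and recycles Atg8 proteins, rose by 0.38 ± 0.11 in ERβ5 against ERβ-KO (adjusted p = 0.0302), with 0.13 left after the GC trend was removed (adjusted p = 0.212), and was not called without ERβ5 replicate 2, ERβ-KO replicate 1 or ERβ-KO replicate 2 (adjusted p from 0.0798 to 0.153). With the 2 groups alone ATG4B was not called either (0.37, adjusted p = 0.0525). ATG4A, ATG5, ATG7, ATG10, ATG12 and ATG16L1 were called in no comparison. The level of ATG7 (32.5 to 37.1 CPM) is uncertain, since 29.9% of its canonical exon bases overlap VGLL4 on the opposite strand, at 83 to 93.8 CPM.

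The start of the autophagosome changed at single genes. ULK1, the kinase that starts autophagy under AMPK and mTORC1 control, had 90.8 and 105 CPM in ERβ5, 83.4 and 66.6 in ERβ1, 63.5 and 63.7 in ERβ-KO and 63.7 and 61.4 in control libraries, and ERβ5 lay above the rest. It rose by 0.65 ± 0.12 in ERβ5 against control (adjusted p = 0.00508; 0.62, adjusted p = 0.0565, without control replicate 2) and by 0.62 ± 0.12 against ERβ-KO (adjusted p = 0.00554). The second was lost with the GC trend removed (0.20, adjusted p = 0.0914). ULK2, ATG13, BECN1, ATG14 and UVRAG, which complete this role, were called in no comparison, with levels from 22.2 CPM for ATG14 to 218 CPM for ATG13. Of BECN1's canonical exon bases, 37.7% overlap CNTD1 on the opposite strand, at 0 to 0.073 CPM.

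ATG2A, which passes lipids to the growing membrane, had 54.8 and 61 CPM in ERβ5, 52.2 and 49.4 in ERβ1, 33.1 and 31.7 in ERβ-KO and 46.3 and 45.5 in control libraries. No group overlapped another, and ERβ-KO was lowest. ATG2A fell by 0.50 ± 0.10 on the log2 scale in ERβ-KO against control (adjusted p = 0.0101), and rose against ERβ-KO by 0.65 ± 0.10 in ERβ1 (adjusted p = 0.00141) and by 0.84 ± 0.10 in ERβ5 (adjusted p = 0.000561). The fall was -0.16 with the GC trend removed (adjusted p = 0.199) and was lost without control replicate 1, control replicate 2 or ERβ-KO replicate 1 (adjusted p from 0.0595 to 0.0949), while with that trend removed the rises were 0.33 and 0.41 and still called. ATG9A, a lipid scramblase on vesicles, had 90.2 and 95 CPM in ERβ5, 91.4 and 78.4 in ERβ1, 67 and 67.4 in ERβ-KO and 71 and 71.2 in control libraries. It rose against ERβ-KO by 0.46 ± 0.10 in ERβ5 (adjusted p = 0.00929) and by 0.34 ± 0.10 in ERβ1 (adjusted p = 0.034). The ERβ1 rise was not called with the 2 groups alone (0.32, adjusted p = 0.0661). ATG9A also rose by 0.38 ± 0.10 in ERβ5 against control (adjusted p = 0.0316). The ERβ1 call was lost with the GC trend removed (0.12, adjusted p = 0.202) and without ERβ1 replicate 1, ERβ-KO replicate 1 or ERβ-KO replicate 2 (adjusted p from 0.112 to 0.214), and the call against control without ERβ5 replicate 2 (0.34, adjusted p = 0.123), control replicate 1 or control replicate 2 (adjusted p = 0.223 and 0.185). WIPI1 and WIPI2, which bind the lipid made by the BECN1 complex, were not called.

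TFEB RNA was scarce, at 2.07 and 1.65 CPM in ERβ5, 1.61 and 2 in ERβ1, 1.35 and 1.05 in ERβ-KO and 2.09 and 2.27 in control libraries, from 32 to 97 reads. It was lowest in ERβ-KO, which did not overlap the others, and fell there by 0.84 ± 0.24 on the log2 scale against control (adjusted p = 0.0369). That call was lost without any 1 of the 4 libraries (adjusted p from 0.0946 to 0.207), in DESeq2 (adjusted p = 0.0702) and after removal of the GC trend (-0.44, adjusted p = 0.342). Against ERβ-KO it differed by 0.62 in ERβ5 (adjusted p = 0.0853) and by 0.59 in ERβ1 (adjusted p = 0.104).

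In the lysosomal membrane, MCOLN1 changed and LAMP1 did not pass the test. MCOLN1 (chr19:7587510-7598895, plus strand) encodes TRPML1, a calcium channel of the lysosome, and had 11.5 and 15.2 CPM in ERβ5, 10.6 and 10 in ERβ1, 6.29 and 7.44 in ERβ-KO and 9.58 and 10.8 in control libraries. ERβ-KO was below all other libraries. MCOLN1 fell by 0.57 ± 0.17 in ERβ-KO against control (adjusted p = 0.0371), and rose against ERβ-KO by 0.59 ± 0.17 in ERβ1 (adjusted p = 0.026) and by 0.96 ± 0.17 in ERβ5 (adjusted p = 0.00342). The fall was lost without any 1 library (adjusted p from 0.0557 to 0.243) and after removal of the GC trend (-0.29, adjusted p = 0.161), the ERβ1 rise with that trend removed (0.31, adjusted p = 0.0976) and without ERβ1 replicate 1 (0.55, adjusted p = 0.123) or ERβ-KO replicate 1 (0.47, adjusted p = 0.16), and the ERβ5 rise in no alternative. LAMP1, a glycoprotein of the membrane, had 230 and 238 CPM in ERβ5, 239 and 242 in ERβ1, 220 and 233 in ERβ-KO and 253 and 251 in control libraries. Its log2 differences lay between -0.15 and 0.09. With the GC trend removed those against ERβ-KO turned from above 0 to -0.11 in ERβ5 and -0.06 in ERβ1. LAMP2 (269 to 330 CPM) and the cholesterol exporter NPC1 (44.4 to 56.1 CPM) were also not called, but LAMP2 in ERβ5 against ERβ-KO turned from -0.13 to 0.30 and was called higher with that trend removed (adjusted p = 0.0325).

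Base composition moved with these results. Across the 38 tested members, which share their libraries, the log2 change correlated with transcript GC content at -0.65 in ERβ-KO against control, 0.55 in ERβ1 against ERβ-KO and 0.71 in ERβ5 against ERβ-KO, and at 0.30 in ERβ5 against ERβ1; over all annotated genes tested the values were -0.46, 0.38, 0.53 and 0.11. ATG2A, TFEB, MCOLN1 and GAA, the 4 that fell in ERβ-KO against control, have 63.9%, 64.7%, 60.9% and 64.8% GC, against a median of 49.1% over the 39 genes. With each library's GC and length trend removed, 5 members rose and 0 fell in ERβ-KO against control, beside 3 and 4 without the correction, and 11.8% of all genes were called. Of the 7 earlier calls there, 2 were kept (ATG3 and MAP1LC3B), and ULK1 (0.37), CTSD (0.46) and GLA (0.40) were gained. In ERβ5 against ERβ-KO 8 rose and 3 fell with the trend removed, beside 12 and 2, with 8 of the 14 earlier calls kept and 18% of all genes called. ERβ1 against ERβ-KO then had 3 risen and 5 fallen, beside 3 and 3, with 3 of 6 kept and 23.9% of all genes called. In ERβ5 against ERβ1 5 rose and 1 fell, with SQSTM1, OPTN, CTSD and GLA all kept, ULK1 (0.29) and GABARAPL2 (-0.23) gained, and 8.39% of all genes called. Whether the trend is technical was not tested.

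**Figure D4:**
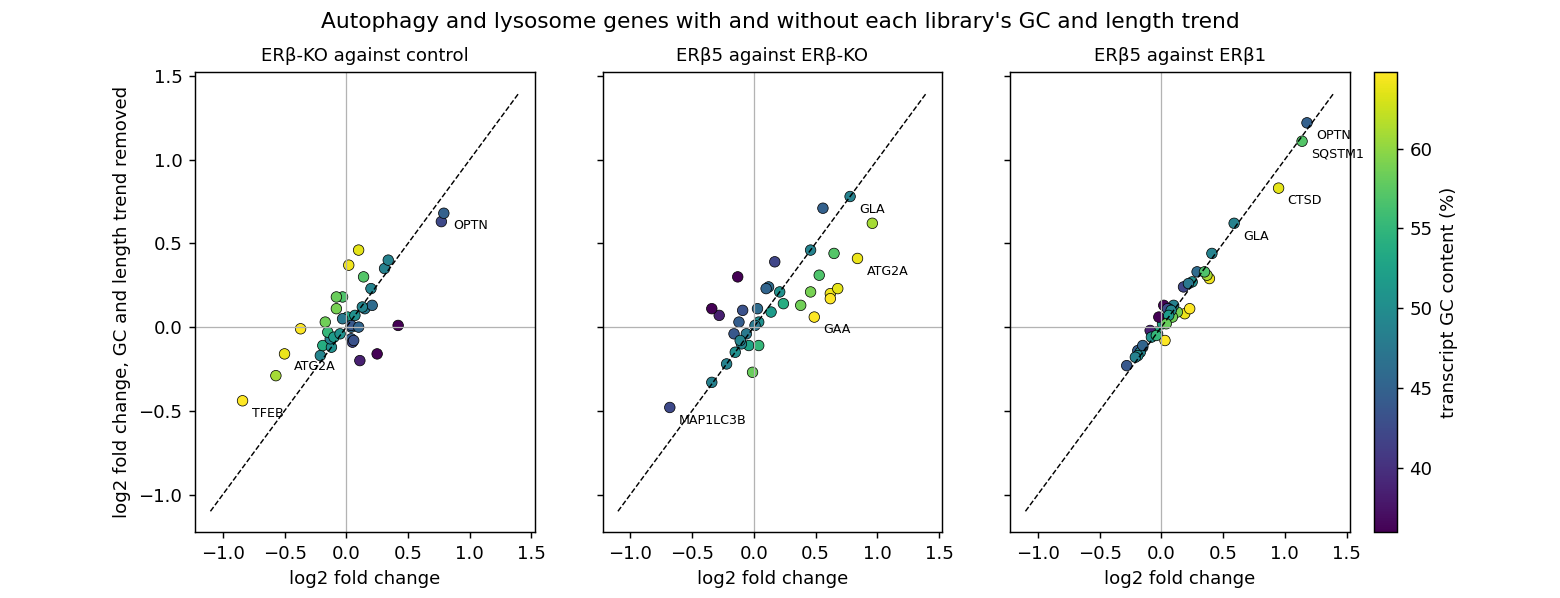
Log2 fold change of each tested member (horizontal) against its value with each library's GC and length trend removed (vertical) in 3 comparisons, coloured by transcript GC content, with a dashed line of equal values. In ERβ-KO against control the GC-rich ATG2A is at -0.50 before and -0.16 after removal and TFEB at -0.84 and -0.44, while in ERβ5 against ERβ1 the points lie near the line.

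The rest of the pathway was read from 5 further lists, with the same background of calls. Of 38 other lysosomal hydrolases and cofactors tested, 5 rose and 1 fell in ERβ5 against ERβ1, led by the cysteine protease CTSS at 2.40 ± 0.42 (adjusted p = 0.00744), legumain LGMN at 0.59 ± 0.13 and cathepsin L (CTSL1) at 0.55 ± 0.13. CTSS was rare, at 1.84 and 3.53 CPM in ERβ5, 0.225 and 0.682 in ERβ1, 1.17 and 1.09 in ERβ-KO and 0.341 and 0.437 in control libraries. It also rose in ERβ5 against ERβ-KO, by 1.22, beside IDUA (0.93) and ARSA (0.82), where 10 of the 38 rose and 1 fell. In ERβ1 against ERβ-KO 8 rose and 4 fell, with ARSA at 0.79, the mannosidase MAN2B1 at 0.71 and AGA at -0.65. In ERβ-KO against control 5 rose and 4 fell, with CTSS at 1.54, NAGLU at -0.68 and MAN2B1 at -0.67. That last count turned, with the GC trend removed, to 1 risen and 5 fallen, with NAGLU and MAN2B1 still called and CTSS not (1.27, adjusted p = 0.121), and the count in ERβ1 against ERβ-KO to 8 risen and 7 fallen.

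Of 28 other lysosomal membrane and sorting genes, 3 rose in ERβ5 against ERβ1, which were LAMP3 at 2.13 ± 0.29, CD68 at 1.39 ± 0.19 and the chloride transporter CLCN7 at 0.58 ± 0.15 (adjusted p = 0.00388, 0.00166 and 0.0454). LAMP3, a glycoprotein that is inducible rather than constitutive, had 24.3 and 51.1 CPM in ERβ5, 7.81 and 9.19 in ERβ1, 50.3 and 53.8 in ERβ-KO and 21.3 and 19.7 in control libraries. It was lower in ERβ1 than in ERβ-KO, at -2.60 ± 0.29 (adjusted p = 0.000425), and higher in ERβ-KO than in control by 1.35 ± 0.28 (adjusted p = 0.0136), and ERβ5 replicates lay far apart. CD68 is also a macrophage marker, and the macrophage list of 6 genes summed to 10.2 and 14.2 CPM in ERβ5, 5.15 and 4.73 in ERβ1, 6.86 and 6.29 in ERβ-KO and 6.08 and 6.71 in control libraries, of which CD68 made most, with AIF1 at 0 and PTPRC at most 0.0367 CPM. In that list 5 of the 6 genes stayed under 1 CPM in every library, and its part in the CD68 result was not tested. In bulk samples, fewer cells of a type and less RNA per cell cannot be told apart. In ERβ5 against ERβ-KO 7 rose, led by CD68 at 0.86, the transporter ABCA2 at 0.68 and GNPTG at 0.52. In ERβ1 against ERβ-KO 5 rose and 3 fell, with ABCA2 at 0.70 and OSTM1 at -0.53, and in ERβ-KO against control 2 rose and 2 fell, with ABCA2 at -0.67 and OSTM1 at 0.56. After removal of the GC trend 4 rose and 1 fell in ERβ5 against ERβ1, 3 rose in ERβ5 against ERβ-KO, 2 rose and 4 fell in ERβ1 against ERβ-KO, and 1 rose and 1 fell in ERβ-KO against control, where LAMP3 was no longer called (1.21, adjusted p = 0.0675).

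Of 27 other autophagy genes, 4 rose and 2 fell in ERβ5 against ERβ-KO, with TMEM41B, needed for early autophagosome membranes, at -0.68, PLEKHM1 at 0.68 and TECPR1 at 0.56. In ERβ1 against ERβ-KO 3 rose and 2 fell, with TMEM41B at -0.69, TECPR1 at 0.53 and RB1CC1, a scaffold of the ULK1 complex, at -0.43. In ERβ-KO against control 2 rose and 2 fell, with TECPR1 at -0.57, RB1CC1 at 0.54 and the fusion protein STX17 at 0.36. None of these named values stayed called with the GC trend removed, where 3 genes rose and 1 fell in ERβ5 against ERβ-KO and 2 rose and 1 fell in ERβ1 against ERβ-KO. WDR45, the other call in ERβ-KO against control, was lost as well. In ERβ5 against ERβ1 0 of the 27 were called, before and after removal of the GC trend. Over all genes 4.66% were called there in the main fit.

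Of 32 tested TFEB relatives and mTORC1 or AMPK regulators, 6 rose in ERβ-KO against control, led by PRKAA2, the AMPK catalytic subunit alpha 2, at 0.96 ± 0.20, with MITF at 0.56 and FNIP2 at 0.48. PRKAA2 had 7.61 and 5.88 CPM in ERβ5, 5.78 and 8.76 in ERβ1, 13.1 and 15.6 in ERβ-KO and 7.47 and 7.26 in control libraries, with both ERβ-KO libraries above every other. In ERβ1 against ERβ-KO 4 rose and 6 fell, with PRKAA2 at -0.96, FNIP2 at -0.93 and the mTORC1 activator RHEB at -0.75. In ERβ5 against ERβ-KO 1 rose and 7 fell, with PRKAA2 at -1.08, MITF at -0.59 and the mTORC1 inhibitor DDIT4 at -0.56. Once the GC trend was removed, 7 rose and 1 fell in ERβ-KO against control, 2 rose and 10 fell in ERβ1 against ERβ-KO, and 1 rose and 8 fell in ERβ5 against ERβ-KO, and of the named values MITF alone was no longer called. Of 17 subunits of the vacuolar ATPase, the pump that acidifies the lysosome, 4 rose in ERβ5 against ERβ-KO, with ATP6V0E2 at 0.68, ATP6V0C at 0.54 and ATP6V1F at 0.42, and in ERβ1 against ERβ-KO ATP6V0E2 rose (0.71) and ATP6V0A2 fell (-0.37). With the GC trend removed 3 rose in ERβ5 against ERβ-KO, with ATP6V0C and ATP6V1F no longer called. In ERβ1 against ERβ-KO 5 then rose and 0 fell, with ATP6V0A2 at -0.24 (adjusted p = 0.0806). In ERβ-KO against control 0 of the 17 were called, and 1 rose with the GC trend removed. In ERβ5 against ERβ1 0 of the 17 subunits and 0 of the 32 relatives and regulators were called. After removal of the GC trend that was still 0 of the 17, while 2 of the 32 rose and 2 fell.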

How the data were processed

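The authors deposited raw read counts per gene for each of the 8 libraries, from single-end reads of 50 bases per the labels' protocols. Per the submitters' processing notes, bcl2fastq, TopHat2 2.0.8b and HTSeq were used, with hg19. The version of HTSeq, the strand setting and the annotation release were not given in the sources used here, so reads of overlapping genes on opposite strands cannot be told apart. Entries that name no gene held 42.9 to 47.5% of reads and were left out. Most of these were reads without a single place in the genome. They made 35.5 and 34.7% of reads in ERβ5, 37.7 and 37.8% in ERβ1, 35.4 and 36.4% in ERβ-KO and 39.7 and 39.9% in control libraries.

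Counts were filtered with filterByExpr (minimum count 10, minimum total 15), scaled with TMM and tested with edgeR 4.0.16 (robust quasi-likelihood, all 8 libraries in 1 fit) in R 4.3.3, with Benjamini-Hochberg adjustment over 13915 genes and calls at an adjusted p under 0.05. A standard error is the size of the log2 change over the square root of its F statistic. CPM uses TMM-scaled library sizes. Transcript lengths and GC contents, from GENCODE canonical transcripts on GRCh37, covered 95.4% of tested genes. The test code was also run on simulated counts, whose replicates differed by random spread alone. That run does not measure the rate of false calls in these libraries. With 2 libraries in a group, a library left alone is assumed to vary like the others.

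Genes given in full are up to 6 changed members per comparison with the largest change, plus TFEB, SQSTM1, MAP1LC3B, LAMP1 and CTSD, and other changed members more briefly. In each further list, up to 3 changed genes with the largest change are named in each of 4 main comparisons. The members and lists were chosen with earlier results of these data known. Alternatives were other size factors, other filters, DESeq2 1.42.0, a fit with the 2 groups compared alone, the replicate number as a block, each library's GC and length trend removed by lowess (span 0.3), and leaving out each library in turn.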

Additional observations from a re-analysis of the deposited data

Results flagged for a closer look

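The difference of the libraries labelled ERβ5 from ERβ-KO was not the same as that of the libraries labelled ERβ1 for 4 members, as tested by the direct difference between ERβ5 and ERβ1 libraries in edgeR, since both are set against the same ERβ-KO libraries. The log2 difference was 1.18 for OPTN (adjusted p = 0.00167), 1.14 for SQSTM1 (adjusted p = 0.0057), 0.95 for CTSD (adjusted p = 0.0149) and 0.59 for GLA (adjusted p = 0.0145). OPTN was 0.56 above ERβ-KO in ERβ5 and -0.62 relative to ERβ-KO in ERβ1, and both differences were called. For SQSTM1 and CTSD the same pair of values was 0.65 and -0.49, and 0.68 and -0.28, of which the ERβ5 values alone were called. With the GC trend removed, the ERβ1 values were called (-0.66 for SQSTM1, adjusted p = 0.0257, and -0.60 for CTSD, adjusted p = 0.00608). The ERβ5 values were not (0.44, adjusted p = 0.112, and 0.23, adjusted p = 0.202). With the replicate block in that fit as well, both SQSTM1 values were called, and of the CTSD values the ERβ1 value alone. Without ERβ5 replicate 2, the library with the highest level of all 4 genes, the differences from ERβ1 were 0.84 for OPTN (adjusted p = 0.000536), 0.76 for SQSTM1 (adjusted p = 0.00456), 0.56 for CTSD (adjusted p = 0.0212) and 0.53 for GLA (adjusted p = 0.0864, no longer called). Without ERβ1 replicate 1 none of the 4 was called (adjusted p from 0.0521 to 0.0971), and without ERβ1 replicate 2 OPTN alone was (adjusted p = 0.0452).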

How the results depend on the processing

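Of 41 calls on members over 6 comparisons, 10 held in every alternative (ATG2A, ATG3 and MAP1LC3B in ERβ1 against ERβ-KO, ATG2A, ATG9A, MAP1LC3B, MCOLN1 and GLA in ERβ5 against ERβ-KO, OPTN and GLA in ERβ5 against control), 31 were lost in at least 1, and 0 changed sign; the cause was not tested. Without 1 library at a time, members called and all genes called ran from 0 to 3 and 247 to 1497 in ERβ-KO against control, 3 to 9 and 1208 to 3812 in ERβ1 against ERβ-KO, 8 to 15 and 1689 to 4389 in ERβ5 against ERβ-KO, 0 to 9 and 131 to 1393 in ERβ5 against ERβ1, 0 to 0 and 130 to 235 in ERβ1 against control, and 3 to 11 and 591 to 2134 in ERβ5 against control. TFEB rests on 32 to 97 reads per library, the fewest of the tested members.

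With only the 2 groups compared, 4349 genes (main value 2434) were called in ERβ-KO against control. In ERβ5 against ERβ-KO 8 members (14) and 2786 genes (3922) were called, and in ERβ1 against control 3 members (1) and 1112 genes (565). Without a filter on low counts, 1375 genes (649) were called in ERβ5 against ERβ1, and 3 members and 1384 genes in ERβ1 against control. DESeq2 called 2 members and 853 genes there. With the GC trend removed, without and with the replicate block, all genes called were 2506 and 2611 in ERβ5 against ERβ-KO (3922), 1168 and 1282 in ERβ5 against ERβ1, 1369 and 1493 in ERβ1 against control and 3046 and 3194 in ERβ5 against control (1831), and 4 members were called in both fits of ERβ1 against control.

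Landmark genes that had not been called changed sign in log2 as follows. In ERβ-KO against control, leaving out 1 library gave SQSTM1 -0.04 (without ERβ-KO replicate 2) to 0.29 and CTSD -0.02 (the same library) to 0.21. With the GC trend removed, with or without the block, LAMP1 was -0.06 in ERβ1 and -0.11 in ERβ5 against ERβ-KO. In ERβ5 against ERβ1, TFEB was -0.08 with the trend removed and -0.10 with the block as well, -0.10 without ERβ1 replicate 1 and -0.15 without ERβ5 replicate 1 (at most 0.21 without any 1 library), and MAP1LC3B was -0.07 without ERβ1 replicate 1 (at most 0.18). In ERβ1 against control, MAP1LC3B was -0.10 without ERβ1 replicate 2 and at most 0.15.

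Samples with the same replicate number deviated together at correlations across genes of -0.12 to 0.139, and whether they share a batch was not tested. With the replicate block, members and all genes called were 8 and 2532 in ERβ-KO against control and 8 and 3519 in ERβ1 against ERβ-KO. They were 14 and 3929 in ERβ5 against ERβ-KO and 4 and 652 in ERβ5 against ERβ1. Against control they were 1 and 581 in ERβ1 and 9 and 1850 in ERβ5.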
